A study of Mus musculus with 6 samples.

Results

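The CC chemokine genes described here are 10 ligand genes of myeloid cells, Ccl2, Ccl3, Ccl4, Ccl5, Ccl6, Ccl7, Ccl9, Ccl12, Ccl17 and Ccl22, chosen by symbol from the 56832 genes of the count files. All 10 were in the files and all 10 passed the filter on low counts, with 12488 genes tested in all. They were measured by RNA sequencing of polyadenylated RNA in cells labelled as monocytes from mouse peripheral blood. The thrombocytopenic group (3 libraries, labelled DTR) carried PF4cre-iDTR, in which Cre recombinase under the promoter of Pf4, the platelet factor 4 gene active in megakaryocytes, turns on a receptor for diphtheria toxin. The control group (3 libraries, labelled WT) was wild type. Diphtheria toxin is the treatment named for both groups, and the sources used here give no dose, time or age of the mice. Genotype and platelet state therefore cannot be told apart. Pf4 itself was read at 1095 ± 38.8 CPM in thrombocytopenic and 924 ± 23.4 CPM in control libraries (mean ± SD, n = 3 each; CPM are counts per 1000000 counts, scaled by TMM factors). The activity of the Pf4 promoter in the profiled cells was not tested.

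Chemokines are small secreted proteins that guide cells along a gradient by binding receptors coupled to G proteins, and CC chemokines are named for a pair of adjacent cysteines. In blood and tissue, Ccl2, Ccl7 and, in mice, Ccl12 bind Ccr2, the receptor by which classical monocytes leave the bone marrow and enter inflamed tissue. Ccl3 and Ccl5 are ligands of Ccr1, as are the rodent chemokines Ccl6 and Ccl9, while Ccl17 and Ccl22 bind Ccr4, a receptor of T cell subsets.

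Thrombocytopenic libraries held less RNA of the Ccr2 ligand genes and more of the genes of the macrophage inflammatory protein group. Ccl2 and Ccl7 were 2.84-fold and 2.80-fold lower and Ccl12 1.79-fold lower. Ccl3, Ccl6, Ccl4 and Ccl9 were 1.69-fold, 1.60-fold, 1.41-fold and 1.39-fold higher. Ccl5 was 1.09-fold lower, Ccl22 1.34-fold lower and the rare Ccl17 transcript 2.26-fold lower. With edgeR (quasi-likelihood, adjusted p under 0.05 over all genes tested) 4 members were higher and 6 lower, so that 10 of 10 were called, against 45.1% of all tested genes (22.4% higher and 22.7% lower). Calls were commoner among abundant genes: 65.4% of the 3768 genes with a mean of at least 50 CPM, which include 9 of the 10 members, were called. At least 2-fold changes were found in 3 of the 10 members, all lower (Ccl2, Ccl7 and Ccl17), against 3.92% of all tested genes in either direction and 3.02% lower; no member was at least 2-fold higher, against 0.897% of all genes. The median log2 fold change was -0.27 over the members and 0.00 over all genes, and the median absolute value was 0.719 over the members and 0.155 over all genes. The 3 thrombocytopenic libraries lay wholly on one side of the 3 control libraries for all 10 members, as they did for 51.3% of all tested genes and 69.2% of those with at least 50 CPM.

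**Figure D1:**
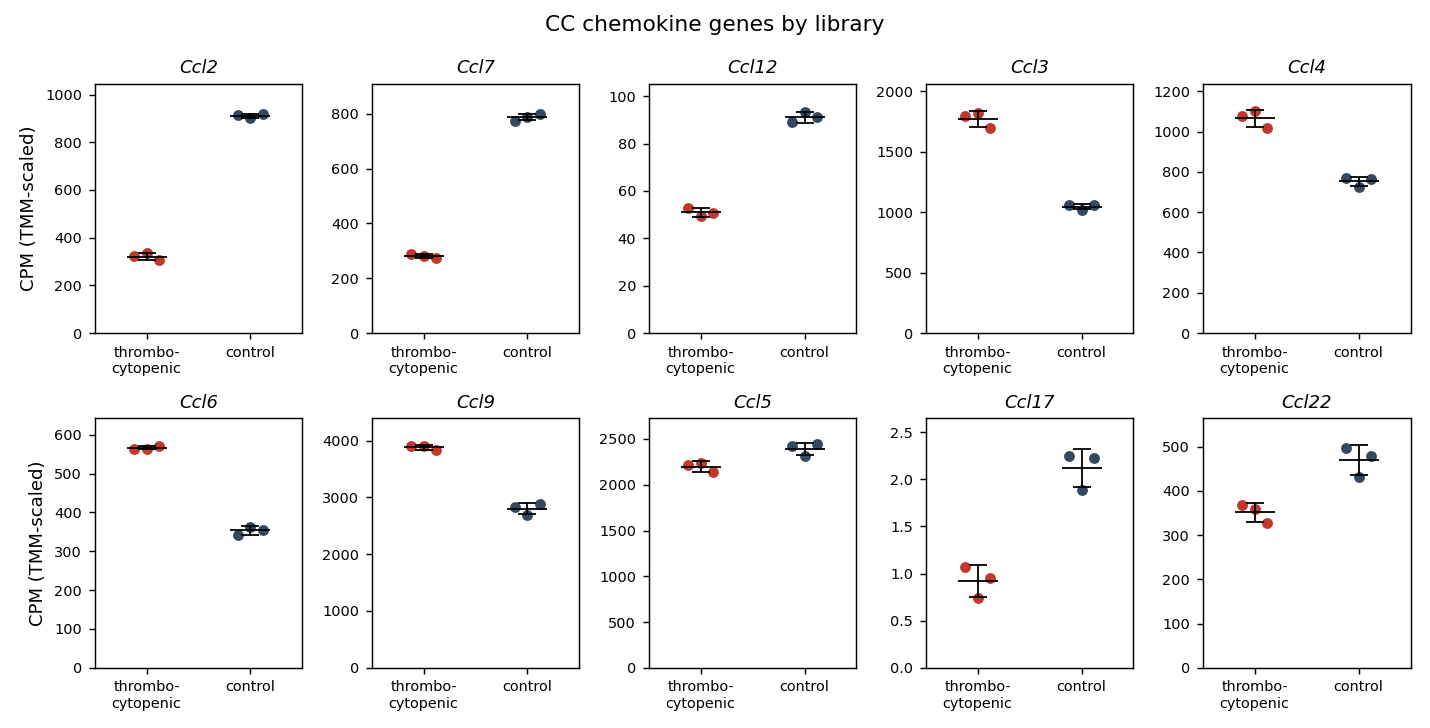
TMM-scaled CPM of the 10 CC chemokine genes in each library, on a linear axis from 0, with thrombocytopenic libraries in red and control libraries in blue; the long line is the mean and the bars are the SD (n = 3). In every panel the 3 thrombocytopenic points lie apart from the 3 control points, from Ccl2 (on average 321 CPM in thrombocytopenic and 911 CPM in control libraries) to Ccl5 (2199 CPM in thrombocytopenic and 2395 CPM in control libraries).

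The stretches directly upstream of 4 members are shown because they come from genes that were lower (Ccl12, Ccl22) and higher (Ccl3, Ccl9) in the thrombocytopenic libraries. RefSeq promoter windows were matched for 6 of the 10 members, and the 250 bases before the start are printed 5′ to 3′ on the strand of the gene, from build GRCm38.p6. They are chr11:82101595-82101844 (plus strand) for Ccl12, chr8:94745434-94745683 (plus strand) for Ccl22, chr11:83649379-83649628 (minus strand) for Ccl3 and chr11:83578637-83578886 (minus strand) for Ccl9. Capitals mark matches to the motifs searched.
Ccl12: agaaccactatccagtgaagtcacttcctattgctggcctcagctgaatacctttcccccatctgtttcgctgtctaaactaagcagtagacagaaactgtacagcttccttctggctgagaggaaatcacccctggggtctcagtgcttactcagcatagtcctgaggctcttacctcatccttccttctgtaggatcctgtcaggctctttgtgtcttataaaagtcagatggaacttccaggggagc
Ccl22: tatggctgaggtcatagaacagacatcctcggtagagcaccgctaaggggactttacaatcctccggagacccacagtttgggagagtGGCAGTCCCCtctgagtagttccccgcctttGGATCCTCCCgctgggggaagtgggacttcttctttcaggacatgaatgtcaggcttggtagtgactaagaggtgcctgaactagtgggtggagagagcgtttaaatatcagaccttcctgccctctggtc
Ccl3: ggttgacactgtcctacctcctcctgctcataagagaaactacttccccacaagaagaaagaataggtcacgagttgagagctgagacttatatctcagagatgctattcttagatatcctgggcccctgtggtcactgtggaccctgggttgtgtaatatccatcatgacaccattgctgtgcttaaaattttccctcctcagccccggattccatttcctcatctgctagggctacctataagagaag
Ccl9: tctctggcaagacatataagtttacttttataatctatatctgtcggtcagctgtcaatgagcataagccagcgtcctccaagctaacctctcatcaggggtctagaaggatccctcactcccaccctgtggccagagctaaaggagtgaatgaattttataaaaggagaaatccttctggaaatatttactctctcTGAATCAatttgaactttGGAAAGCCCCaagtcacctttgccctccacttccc
Motifs were searched on both strands: GGG and CC separated by 5 bases for NF-kB, TGANTCA for AP-1, TTCNNNGAA for STAT, GAAA and GAAA separated by 2 bases for IRF, TTGCNNAA for C/EBP and GAGGAAGT for PU.1. Ccl22 held 2 matches to the NF-kB letters, both on the minus strand relative to the gene, the nearer at 131 to 122 bases before the start. Ccl9 held 1 match to the NF-kB letters, at 35 to 26 bases, and 1 to the AP-1 letters, at 53 to 47 bases before the start. No match overlapped another. Ccl3 and Ccl12 held none of the 6 motifs in this window, nor did Ccl6, and Ccl17 held 1 match to the STAT letters. Over 32851 windows of the same length, 45.8% held the NF-kB letters, 6.75% AP-1, 7.02% STAT, 2.98% IRF, 9.56% C/EBP and 2.44% PU.1. These matches are a description of the letters and no evidence of binding.

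The libraries held 29883019 to 37552029 counts in the thrombocytopenic group and 24842319 to 35955383 in the control group. Within a group, pairs of libraries had a chi-square of 1.87 to 3.11 per degree of freedom, more than sampling noise gives, and each was counted as its own sample. The labels do not say whether each library is a separate animal; the p-values speak only of the spread among the 6 libraries, which can be technical. The common biological coefficient of variation was 2.68%, which lets small differences pass the test. Among 8 monocyte markers none was at 0, and the sum was 16800 to 17100 CPM in thrombocytopenic and 14900 to 15300 CPM in control libraries. Most of that sum was Lyz2, the lysozyme gene, at 13710 ± 115 CPM in thrombocytopenic and 11990 ± 260 CPM in control libraries. The list went both ways, with 5 markers higher and 3 lower, against 22.4% and 22.7% of all tested genes. The largest change among them was in Cx3cr1, the fractalkine receptor gene, at 11.5 ± 0.374 CPM in thrombocytopenic and 52.2 ± 1.10 CPM in control libraries (log2 fold change -2.19); Fcgr1 and Ly6c2 were the other lower markers. Csf1r, the receptor gene of the monocyte growth factor, stood at 1481 ± 4.69 CPM in thrombocytopenic and 1229 ± 18.8 CPM in control libraries. Adgre1, a gene often used as a macrophage marker, stood at 3285 ± 90.2 CPM in thrombocytopenic and 2712 ± 82.5 CPM in control libraries, and Ly6c2, a marker of classical monocytes, at 67.9 ± 2.84 CPM in thrombocytopenic and 95.1 ± 2.12 CPM in control libraries; its near copy Ly6c1 makes that value uncertain. The labels do not say whether the cells were kept in culture before RNA isolation, so the chemokine levels cannot be read as those of freshly drawn blood monocytes. In bulk RNA, fewer cells of a type and less RNA per cell cannot be told apart.

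The Ccr2 ligand genes were the members with the largest falls among those above 50 CPM. Ccl2, the main attractant of monocytes, had 323, 335 and 304 CPM in thrombocytopenic replicates 1, 2 and 3, against 914, 902 and 918 CPM in control replicates 1, 2 and 3. Every thrombocytopenic library lay under every control library (log2 fold change -1.51, SE 0.028; edgeR adjusted p = 8.48e-42). Ccl7, a neighbour of Ccl2 on chromosome 11 that binds the same receptor, had 289, 280 and 275 CPM in thrombocytopenic libraries and 775, 789 and 801 CPM in control libraries. The groups again did not overlap (-1.49, SE 0.026; edgeR adjusted p = 3.19e-44). Ccl12, the mouse ligand of Ccr2 in the same stretch of the chromosome, had 52.9, 49.2 and 50.8 CPM in thrombocytopenic libraries, against 89.0, 93.6 and 91.1 CPM in control libraries. Its fall was smaller than that of Ccl2 and Ccl7 (-0.84, SE 0.037; edgeR adjusted p = 5.04e-26).

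Within a library, Ccl2 and Ccl7 kept nearly the same proportion to each other. The log2 ratio of Ccl2 to Ccl7 counts was 0.161, 0.256 and 0.147 in the thrombocytopenic libraries and 0.238, 0.193 and 0.198 in the control libraries, so the groups overlapped. Such a ratio does not depend on how libraries are scaled. The ratio of Ccl2 to Ccl3, the genes with the largest fall and rise, was -2.47, -2.44 and -2.48 in thrombocytopenic libraries and -0.207, -0.177 and -0.209 in control libraries. In this ratio the gap between the groups was many times the spread within either group.

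**Figure D2:**
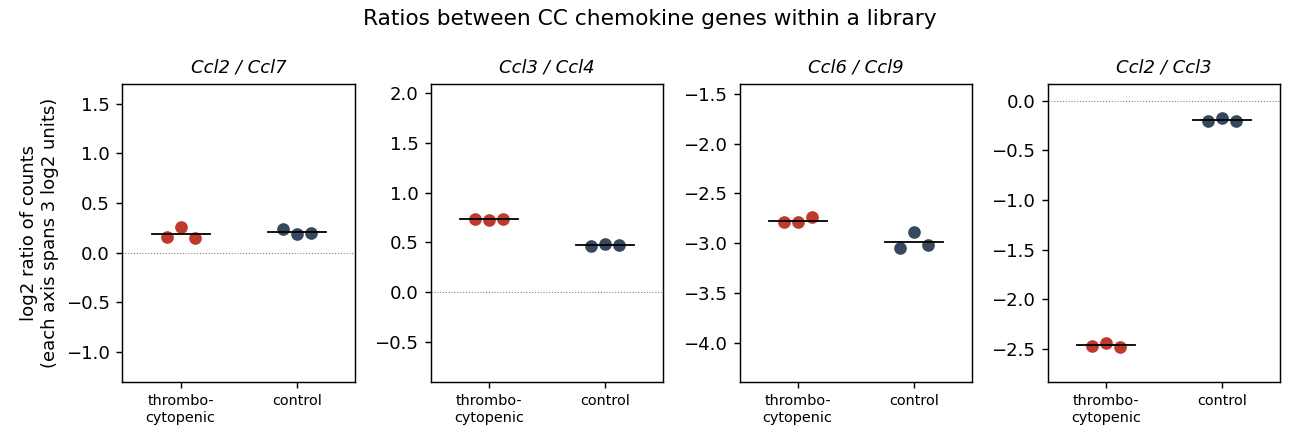
Log2 ratio of the counts of a pair of CC chemokine genes within each library, with thrombocytopenic libraries in red and control libraries in blue, the line marking the mean; each axis spans the same range. The Ccl2 to Ccl7 ratio overlaps between the groups (means 0.188 and 0.209), while the Ccl2 to Ccl3 ratio averages -2.46 in thrombocytopenic and -0.198 in control libraries.

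The genes of the macrophage inflammatory protein group rose. Ccl3, a ligand of Ccr1 that macrophages make on activation, had 1793, 1818 and 1694 CPM in thrombocytopenic libraries, against 1055, 1019 and 1061 CPM in control libraries. This was the largest rise among the members (log2 fold change 0.76, SE 0.025; edgeR adjusted p = 2.44e-31). Its neighbour Ccl4, a chemokine gene that macrophages also switch on when activated, had 1076, 1101 and 1020 CPM in thrombocytopenic libraries, against 768, 727 and 767 CPM in control libraries. The groups did not overlap (0.50, SE 0.027; edgeR adjusted p = 1.36e-20). Ccl3 rose more than Ccl4: their log2 count ratio was 0.736, 0.724 and 0.733 in thrombocytopenic libraries and 0.459, 0.487 and 0.469 in control libraries, with no overlap.

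Ccl6 and Ccl9, the rodent ligands of Ccr1, lie beside each other and rose as well. Ccl6 had 564, 564 and 572 CPM in thrombocytopenic libraries and 342, 363 and 355 CPM in control libraries (log2 fold change 0.68, SE 0.026; edgeR adjusted p = 7.9e-29). Ccl9 had 3911, 3906 and 3826 CPM in thrombocytopenic libraries and 2829, 2692 and 2883 CPM in control libraries (0.47, SE 0.023; edgeR adjusted p = 7.72e-24). In both genes the lowest thrombocytopenic library lay well above the highest control library. The log2 ratio of Ccl6 to Ccl9 counts was -2.79, -2.79 and -2.74 in thrombocytopenic libraries, against -3.05, -2.89 and -3.02 in control libraries, so that Ccl6 rose somewhat more.

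Ccl5, a ligand of Ccr1 also made by T and NK cells and stored in platelets, changed least. It had 2219, 2242 and 2135 CPM in thrombocytopenic libraries and 2422, 2319 and 2443 CPM in control libraries. The groups did not overlap, but the gap between the nearest libraries was narrow (log2 fold change -0.12, SE 0.024; edgeR adjusted p = 2.32e-05). Among 10 T and NK cell markers, 6 had no count in any library, Cd3e and Ncr1 among them, which allows up to 0.0799 to 0.121 CPM by library (3 counts, counting error only). The sum over that list was 0.293 to 0.468 CPM in thrombocytopenic and 0.765 to 1.14 CPM in control libraries. Most of that sum was Cd8a, at 0.256 ± 0.0438 CPM in thrombocytopenic and 0.733 ± 0.138 CPM in control libraries. Of the platelet markers, Gp9, part of the platelet von Willebrand factor receptor, had 0 counts in each thrombocytopenic library and 9, 17 and 15 in the control libraries. The whole platelet list of 10 genes summed to 1220 to 1290 CPM in thrombocytopenic and 1010 to 1060 CPM in control libraries. Most of that sum was Pf4 and Ppbp, which rose. Of the 6 tested platelet markers 2 rose and 4 fell, against 22.4% and 22.7% of all tested genes. Their median log2 fold change was -1.77, and the 4 lower ones were Itga2b (-1.27), Gp9 (-6.9), Nrgn (-7.3) and Clec1b (-2.27). Nrgn, the highest of these in control libraries, had 0.0179 ± 0.0309 CPM in thrombocytopenic and 3.69 ± 0.393 CPM in control libraries. Its counts were 2, 0 and 0 in thrombocytopenic libraries. At such counts the sizes of the Gp9 and Nrgn changes are imprecise, and that of Gp9 ranged from -7.07 to -5 with other processing. In thrombocytopenic libraries 1 marker, Gp9, had no count, and none of the list lacked counts in control libraries. The part of platelet RNA in the Ccl5 result was not tested.

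The Ccr4 ligand genes were lower. Ccl22, made by macrophages and dendritic cells, had 368, 359 and 327 CPM in thrombocytopenic libraries and 498, 432 and 480 CPM in control libraries. Its libraries spread more than those of the other abundant members (log2 fold change -0.42, SE 0.076; edgeR adjusted p = 0.0104). Ccl17, which lies near Ccl22 on chromosome 8, was rare, with 40, 22 and 34 counts (1.07, 0.737 and 0.951 CPM) in thrombocytopenic libraries and 56, 68 and 64 counts (2.25, 1.89 and 2.23 CPM) in control libraries. The groups did not overlap (-1.18, SE 0.21; edgeR adjusted p = 7.16e-06), and the size of this change is the least precise of the 10. Dendritic cell markers were lower in the same libraries: 5 of 6 tested members fell and none rose, against 22.7% and 22.4% of all tested genes. None of the 8 listed was at 0 in either group. The sum was 21.3 to 24.8 CPM in thrombocytopenic and 39.6 to 45.8 CPM in control libraries. Most of that sum was Ccr7, at 15.2 ± 1.34 CPM in thrombocytopenic and 28.0 ± 1.83 CPM in control libraries. Among the defining ones, Flt3 had 0.695 ± 0.167 CPM in thrombocytopenic and 1.71 ± 0.226 CPM in control libraries, and Zbtb46 had 0.414 ± 0.224 CPM in thrombocytopenic and 1.21 ± 0.204 CPM in control libraries. Their part in the Ccl17 and Ccl22 results was not tested.

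**Figure D3:**
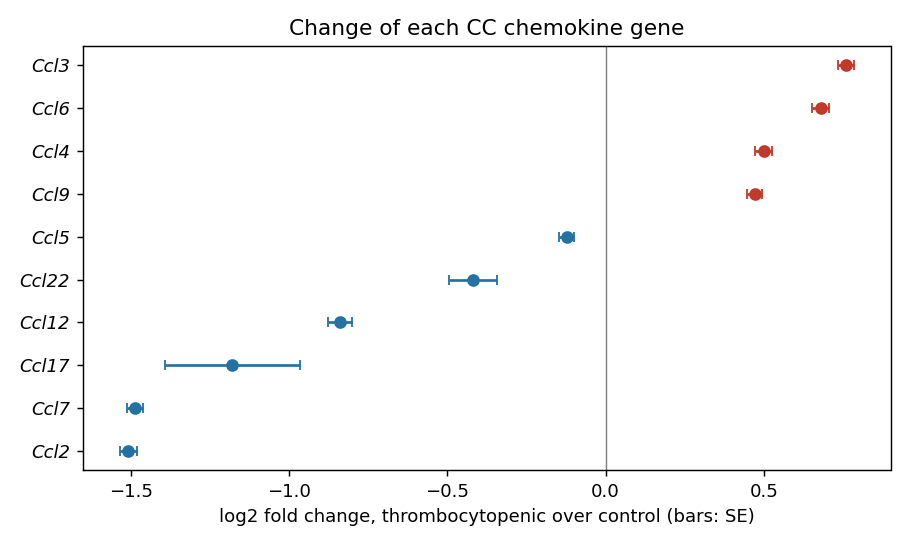
Log2 fold change of each CC chemokine gene, thrombocytopenic over control, from edgeR, with bars for the standard error; red marks higher and blue lower genes. The order runs from Ccl3 (0.76) at the top to Ccl2 (-1.51) at the bottom, and Ccl17 has the widest bar (SE 0.21).

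Basophil, eosinophil and mast cell markers also moved between the groups, and such cells can make Ccl3 and Ccl4. Their sum was 0.506 to 0.7 CPM in thrombocytopenic and 4.54 to 5.03 CPM in control libraries, opposite in direction to Ccl3 and Ccl4. Of the 9 markers, 4 lacked counts in thrombocytopenic libraries and 1 in control libraries, and Mcpt8, a basophil protease gene, had 2, 4 and 6 counts in thrombocytopenic and 63, 82 and 57 in control libraries. Neutrophil markers summed to 9.6 to 14.3 CPM in thrombocytopenic and 13.4 to 15.6 CPM in control libraries, with 1 of 8 at 0 in the thrombocytopenic and 0 in the control group; Ly6g had 1 count in all. B cell markers summed to 13.4 to 15.1 CPM in thrombocytopenic and 11 to 13 CPM in control libraries, with 0 of 6 at 0 in the thrombocytopenic and 1 in the control group. Erythroid markers summed to 0 to 0.056 CPM in thrombocytopenic and 1.81 to 2.27 CPM in control libraries, with 4 of 5 at 0 in the thrombocytopenic and 2 in the control group. Macrophage markers summed to 4050 to 4220 CPM in thrombocytopenic and 3580 to 3680 CPM in control libraries, with 1 of 8, Vsig4, at 0 in both groups. Most of that sum was Adgre1. Of the 7 tested macrophage markers 3 rose and 4 fell, against 22.4% and 22.7% of all tested genes. Their median log2 fold change was -0.41, and the complement genes C1qa, C1qb and C1qc were at -0.71, -0.41 and -0.51. The part of these cells in the chemokine results was not tested.

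Together the 10 genes took 1.05%, 1.06% and 1.02% of all counts in the thrombocytopenic libraries and 0.971%, 0.935% and 0.981% in the control libraries. The make-up of that share differed more than its size. Ccl2, Ccl7 and Ccl12 made up 6.27%, 6.24% and 6.17% of the counts of the 10 genes in thrombocytopenic libraries and 18.3%, 19.1% and 18.5% in control libraries. Ccl3, Ccl4, Ccl6 and Ccl9 made up 69.3%, 69.3% and 69.7% in thrombocytopenic libraries and 51.5%, 51.4% and 51.7% in control libraries. Longer transcripts give more counts, so these shares describe counts and not molecules.

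**Figure D4:**
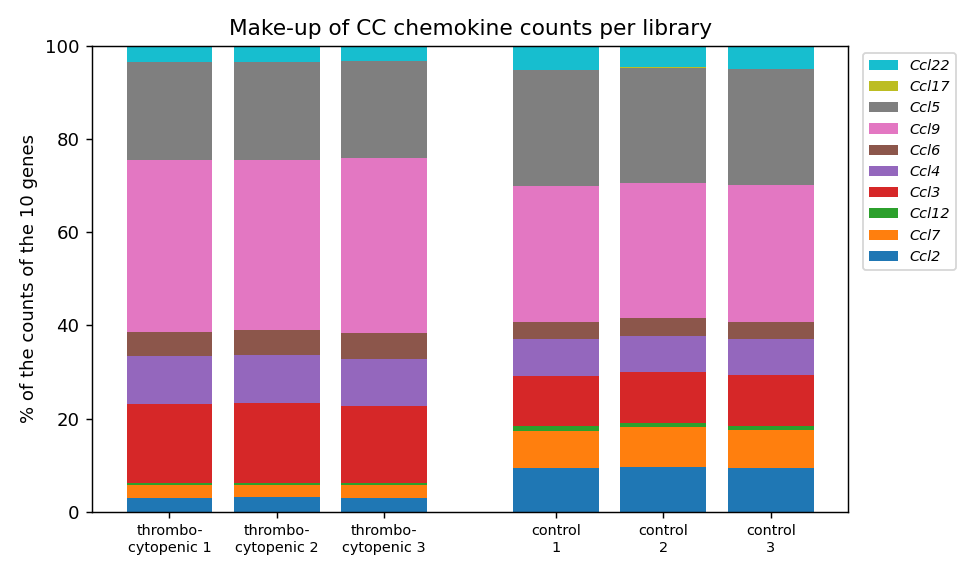
Share of each gene in the summed counts of the 10 CC chemokine genes, in percent, as 1 stacked bar per library, thrombocytopenic libraries on the left and control libraries on the right. The Ccl2 segment is 2.98% to 3.14% high in thrombocytopenic and 9.37% to 9.65% in control libraries, and the Ccl3 segment 16.6% to 17.1% in thrombocytopenic and 10.8% to 10.9% in control libraries.

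Levels of different members were compared per kilobase of exon, in CPM per kb. In thrombocytopenic libraries Ccl3 (2310 ± 85.3) and Ccl5 (2290 ± 58.7) led and did not differ beyond their spread (mean ± SD, n = 3). Ccl4 (1610 ± 62.9) and Ccl9 (1270 ± 15.7) followed, then Ccl7 (351 ± 8.55), Ccl6 (316 ± 2.64) and Ccl2 (282 ± 13.5), and at the low end Ccl22 (151 ± 9.30), Ccl12 (95.0 ± 3.44) and Ccl17 (1.79 ± 0.329). In control libraries the order in CPM per kb was Ccl5 (2490 ± 69.3), Ccl3 (1360 ± 29.5), Ccl4 (1140 ± 34.9), Ccl7 (984 ± 15.8), Ccl9 (920 ± 32.5), Ccl2 (801 ± 7.62), Ccl22 (202 ± 14.7), Ccl6 (197 ± 5.92), Ccl12 (170 ± 4.27) and Ccl17 (4.13 ± 0.396). There Ccl22 and Ccl6 did not differ beyond their spread. Exon lengths come from an annotation that may not be the one used for counting.

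For each member, the genes with the most similar pattern over the 6 libraries were those with the smallest root mean square distance of centred log2 CPM, among 7612 other genes with a mean of at least 10 CPM (7613 for Ccl17). Ccl2 was nearest to Carmil1 (distance 0.0366, log2 fold change -1.51) and next to its neighbour Ccl7 (0.0386). Ccl7 was nearest to Apoe, the apolipoprotein E gene (0.033, log2 fold change -1.45). Ccl3 was nearest to Tnip3 (0.0197) and Nfkbiz (0.0203), which had log2 fold changes of 0.76 and 0.78. Ccl12 was nearest to Iigp1 (0.0239) and Ptafr (0.0323), then Ifit2 (0.0367), and Ccl5 to Lilrb4b (0.0128) and Mx2 (0.0139). Ccl9 was nearest to Zfand5 (0.0133), Ccl4 to Krt222 (0.0222), Ccl6 to Trib1 (0.0215), Ccl22 to Mfsd11 (0.044) and Ccl17 to Rnf180 (0.117). With 2 groups of 3 libraries, this distance mostly reads the size of the difference between the groups.

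Receptor genes for these ligands changed in both directions. Of 15 CC chemokine receptor genes listed, 5 were at 0 in all 6 libraries and 7 were tested, of which 4 were higher and 2 lower, against 22.4% higher and 22.7% lower among all tested genes; their median log2 fold change was 0.09. Ccr2, the receptor of Ccl2, Ccl7 and Ccl12, had 97.8 ± 0.466 CPM in thrombocytopenic and 83.2 ± 2.52 CPM in control libraries (0.23, SE 0.034; edgeR adjusted p = 5.51e-08). Ccr3 was higher by 0.78 on the log2 scale. Ccr1, the receptor of Ccl3, Ccl5, Ccl6 and Ccl9, had 83.5 ± 0.566 CPM in thrombocytopenic and 78.4 ± 1.89 CPM in control libraries (0.09, SE 0.035; edgeR adjusted p = 0.0255). The Ccr1 call was lost without thrombocytopenic replicate 1 (adjusted p = 0.0605), control replicate 1 (0.0532) or control replicate 2 (0.161), with upper quartile scaling (0.107) and by DESeq2 (0.0628). Ccr1 and Ccr3 were named as receptors of the ligands after their values were seen. Ccr7, the receptor that guides dendritic cells to lymph nodes, fell to 15.2 ± 1.34 CPM in thrombocytopenic libraries, against 28.0 ± 1.83 CPM in control libraries (-0.88), and Ccrl2, an atypical receptor, had a log2 fold change of -0.29. Ccr4, the receptor of Ccl17 and Ccl22, had no count in any library, and Ccr9 missed the threshold (0.04 on the log2 scale).

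Of 14 other CC chemokine ligand genes, 7 were at 0 throughout and 3 were tested. Ccl8, a ligand gene beside Ccl12, had 12, 9 and 13 counts in thrombocytopenic and 21, 39 and 29 counts in control libraries (log2 fold change -1.57, SE 0.32; edgeR adjusted p = 4.34e-05). Ccl24, an eosinophil attractant, had 66, 47 and 53 counts in thrombocytopenic and 26, 35 and 22 counts in control libraries (0.80, SE 0.23; edgeR adjusted p = 0.00321). Ccl25 did not pass the test, at 2.95 ± 0.206 CPM in thrombocytopenic and 3.15 ± 0.266 CPM in control libraries. Its exons overlap those of Elavl1 on the opposite strand by 204 bases in GENCODE M21, so its counts are uncertain.

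Genes of signalling below the receptors were mostly slightly higher: 13 of 21 rose, 4 fell and 4 did not pass, with a median log2 fold change of 0.12. Rgs2, a brake on G protein signalling, had the smallest p and fell to 5.73 ± 0.451 CPM in thrombocytopenic libraries, against 12.2 ± 1.06 CPM in control libraries (-1.09). Pik3r6, a regulatory subunit of the kinase PI3K gamma, was at 0.38, Arrb1, a beta-arrestin gene, at 0.48 and Grk5, a receptor kinase gene, at 0.57 on the log2 scale. Of 23 genes of transcription factors and regulators that act on chemokine genes, 7 rose, 9 fell and 7 did not pass (median -0.05). Rel, an NF-kB subunit gene, had 275 ± 3.76 CPM in thrombocytopenic and 189 ± 3.58 CPM in control libraries (0.54). Fos, an AP-1 subunit gene, had 107 ± 2.92 CPM in thrombocytopenic and 172 ± 3.72 CPM in control libraries (-0.69). Atf3, a stress-induced factor, was at -0.37 on the log2 scale. Of 9 genes of mRNA decay and stability, 4 rose and 2 fell (median 0.06). Zfp36l2, which binds AU-rich elements of messenger RNA, had 10.8 ± 0.537 CPM in thrombocytopenic and 26.3 ± 0.540 CPM in control libraries (-1.28). Its relative Zfp36 was at 0.14, Rc3h1 at 0.17 and Rc3h2 at 0.19. A further relative, Zfp36l1, named after its values were seen, was the other gene that fell (-0.28). Over all genes tested, 22.4% rose and 22.7% fell, with a median of 0.00. Most genes of these lists had a mean of at least 50 CPM. Of the 3768 genes at that level, 65.4% were called in either direction.

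Members that lie together on chromosome 11 moved alike, apart from Ccl5. Ccl2, Ccl7 and Ccl12 form one stretch, and Ccl5, Ccl9, Ccl6, Ccl3 and Ccl4 another, in the gene order of GENCODE M21. Within 250 kb of the first stretch 2 other genes were tested, Ccl8 and the predicted gene Gm31522. Both were lower, against 22.7% of all tested genes, and both were rare. Ccl8 had a mean of 0.329 CPM in thrombocytopenic and 0.979 CPM in control libraries, and Gm31522 0.12 and 0.618 CPM. Within 250 kb of the second stretch 11 other genes were tested, of which 6 rose, 1 fell and 4 did not pass, against 22.4% higher and 22.7% lower among all tested genes. Wfdc21 was at 1.42, Heatr6 at 0.61 and Wfdc17, a gene of a small secreted protein, at 0.46 on the log2 scale, while Heatr9, beside Ccl5, was at -0.39. Ap2b1 and Taf15, on the Ccl5 side, were at 0.13 and 0.17. These neighbours were looked up after their values were known, and no test of position was made.

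**Figure D5:**
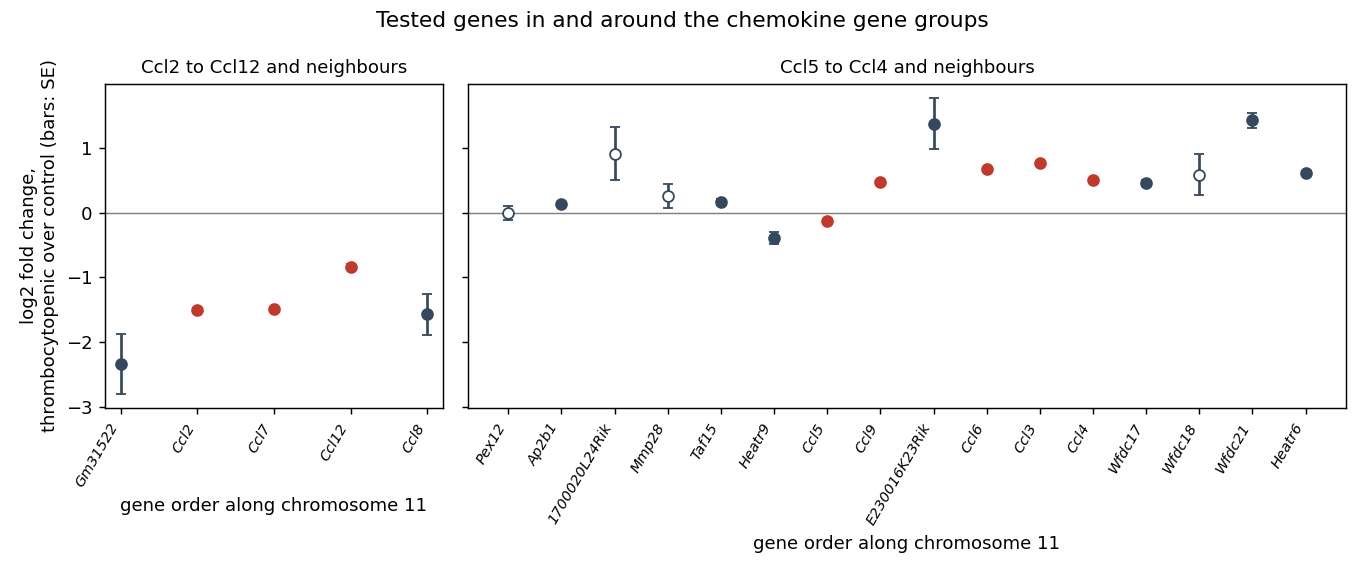
Log2 fold change (thrombocytopenic over control, bars are SE) of every tested gene in the order along chromosome 11, for the stretch from Ccl2 to Ccl12 on the left and from Ccl5 to Ccl4 on the right, each with neighbours within 250 kb. Chemokine genes described here are red, other genes blue, and open circles did not pass the test; Ccl2, Ccl7 and Ccl12 lie between -1.51 and -0.84, and Ccl9, Ccl6, Ccl3 and Ccl4 between 0.47 and 0.76.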

How the data were processed

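The deposited files, 1 per library, hold a whole-number count for each gene symbol, not normalized, as their differing totals show. Per the labels' protocols, mRNA was purified on oligo-dT beads and libraries were made with a kit that marks strand with dUTP. The tools, per the submitters' processing notes, included STAR 2.7.9a and fastp 0.23.1, Salmon 1.5.2, and featureCounts from Subread 2.0.1; the sources used here do not give their order, the genome build, the annotation or the strand settings. Counts were compared in R 4.3.3 with edgeR 4.0.16 (filterByExpr with minimum count 10 and minimum total 15, TMM, robust quasi-likelihood test, group as the only term, two-sided, Benjamini-Hochberg over 12488 genes, threshold 0.05). The steps were tested on simulated data. The standard error of a log2 fold change is its size divided by the root of its F statistic. DESeq2 1.42.0, limma-voom (limma 3.58.1), other scalings, filters and thresholds, a replicate block and the removal of each library were alternatives. Replicate numbers are shared by the groups, but same-numbered libraries did not deviate together.

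The members and lists were chosen with earlier results of these data known. Named genes are all members and, of each pathway list, up to 4 with the smallest p; others are marked in the text, and some genes that meet this rule have no values given here. Exon lengths come from GENCODE M21 (GRCm38), whose symbols cover 89.1% of those in the files. Of the 30-base words of the member transcripts there, none was shared between members, 4.18% of those of Ccl9, 1.08% of Ccl6 and 0.861% of Ccl5 occurred in another gene, and none of the words of the other members did. Counts, floors and intervals cover counting error only. Protein sequences were not used here.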

Additional observations from a re-analysis of the deposited data

How the results depend on the processing

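All 10 members kept their direction under the 16 alternatives, and 9 of them kept their call; Ccl22 missed a threshold of 0.01 (log2 fold change -0.418, edgeR adjusted p = 0.0104; 7.22e-15 to 0.0405 over its alternatives). Log2 fold changes ranged from -1.54 to -1.47 for Ccl2, -1.51 to -1.47 for Ccl7, -0.866 to -0.814 for Ccl12, -0.48 to -0.367 for Ccl22, -1.3 to -1.05 for Ccl17, -0.15 to -0.101 for Ccl5, 0.735 to 0.79 for Ccl3, 0.47 to 0.531 for Ccl4, 0.655 to 0.696 for Ccl6 and 0.438 to 0.49 for Ccl9. With the replicate number as a block, 10 members and 5402 genes were called, against 5626 without it; the same-numbered libraries correlated at -0.0383, -0.0892 and -0.0127 in their deviations from the group means. With a filter of a mean of at least 1 CPM, 1 other CC ligand gene was called in place of 2, since Ccl8 was then not tested. DESeq2 called 4411 genes. Applied to 39 other genes after their values were seen, the alternatives that tested a gene kept every call but that of Ccr1, which 6 of them ended; Ccl8, Zbtb46, Siglech and Gp9 were not tested with the filter of at least 1 CPM. Depth limits Ccl17, Ccl8 and Ccl24, with under 70 counts in every library.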
